A study of Mus musculus with 18 samples.

Results

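The serpins are a family of 63 genes in these data, taken as every row of the deposited tables whose symbol starts with Serpin, out of 23063 rows in all. The letter after Serpin gives the clade. Clade A held 25 genes and clade B 27, while clades E (3), F (2), I (2), C, D, G and H (1 each) held the others. Their levels were read in 18 RNA sequencing libraries of mouse thymic epithelial cells, which present self antigens to developing T cells. Mice were 6 to 8 weeks old, digested thymi were enriched for stroma, and cells were sorted by flow cytometry. There were 6 groups of 3 libraries: medullary cells of the hi gate from mice labelled Aire KO (KO mTEChi) and from wild-type mice (WT mTEChi), medullary cells of the lo gate (KO mTEClo, WT mTEClo), and cortical cells (KO cTEC, WT cTEC). The strain is given as B6.129S2-Airetm1.1Doi/J for all groups, WT included. The surface protein behind the hi and lo gates is not named in the labels, nor whether thymi were pooled. Nothing in the labels says that replicates are separate mice, so the p-values below measure the spread between libraries, which may be technical.

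A serpin works as a single-use trap. The target protease cuts an exposed loop of the inhibitor, stays bound to it, and both are lost. Clade A serpins are mostly secreted, many of them by the liver, and clade B serpins act inside cells, where they are known to guard epithelium and leukocytes against released proteases. Some members inhibit no protease, such as Serpinh1, a collagen chaperone, and the hormone carriers Serpina6 and Serpina7. Aire is a transcriptional regulator of medullary epithelium, known for inducing genes otherwise restricted to single tissues. The series title sets such Aire-induced expression against promiscuous expression that does not need Aire.

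Most serpins lie in 3 runs of neighbouring genes. In mm10 coordinates, 12 clade B genes span chr1:106861180-107608978, 24 clade A genes span chr12:103616675-104414329 and 15 clade B genes span chr13:32842092-34002794. A RefSeq promoter, from 250 bases before to 50 bases after the start of the gene (GRCm38.p6), could be matched to 52 of the 63 members, and in 49 of these the start lay within 100 bases of the start in the deposited tables. These promoters were poor in CpG, with a median of 3 CpG each against 14 over the promoters of all genes in the tables. The letters TATAAA, searched on both strands, stood in 14 of the 52 (26.9%), against 12.8% of the promoters of all genes in the tables. These are matches of letters only. The 5 promoters below belong to the members on which the results turn: Serpinb3a, which fell furthest in KO mTEChi; Serpinb7, the member called higher there; the neighbours Serpinb9 and Serpinb9b, 9.46 kb apart, of which Serpinb9b fell and Serpinb9 was not called; and Serpine2, whose promoter had the most CpG of the family and which fell too. Capitals mark CG, and TATAAA or, on the other strand, TTTATA. Serpinb3a is at chr1:107052254-107052553 (minus strand), Serpinb7 at chr1:107422439-107422738 (plus), Serpinb9 at chr13:33004291-33004590 (plus), Serpinb9b at chr13:33027164-33027463 (plus) and Serpine2 at chr1:79858616-79858915 (minus).
Serpinb3a: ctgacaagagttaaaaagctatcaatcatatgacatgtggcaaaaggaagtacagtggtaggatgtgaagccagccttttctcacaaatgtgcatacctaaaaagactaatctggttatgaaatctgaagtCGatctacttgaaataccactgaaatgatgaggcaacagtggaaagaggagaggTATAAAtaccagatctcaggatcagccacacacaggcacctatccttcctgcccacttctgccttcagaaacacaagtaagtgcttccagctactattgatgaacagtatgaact
Serpinb7: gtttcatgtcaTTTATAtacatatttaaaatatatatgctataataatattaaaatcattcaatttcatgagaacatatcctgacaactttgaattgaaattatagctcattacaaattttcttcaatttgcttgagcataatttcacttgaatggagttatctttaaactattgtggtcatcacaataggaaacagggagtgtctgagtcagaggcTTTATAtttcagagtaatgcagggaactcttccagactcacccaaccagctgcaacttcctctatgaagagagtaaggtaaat
Serpinb9: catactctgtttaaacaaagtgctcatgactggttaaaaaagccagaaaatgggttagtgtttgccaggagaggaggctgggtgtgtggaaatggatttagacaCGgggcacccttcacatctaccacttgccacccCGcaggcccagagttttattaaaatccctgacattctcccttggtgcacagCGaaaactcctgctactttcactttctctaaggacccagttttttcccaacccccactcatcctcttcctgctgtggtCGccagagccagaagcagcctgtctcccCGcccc
Serpinb9b: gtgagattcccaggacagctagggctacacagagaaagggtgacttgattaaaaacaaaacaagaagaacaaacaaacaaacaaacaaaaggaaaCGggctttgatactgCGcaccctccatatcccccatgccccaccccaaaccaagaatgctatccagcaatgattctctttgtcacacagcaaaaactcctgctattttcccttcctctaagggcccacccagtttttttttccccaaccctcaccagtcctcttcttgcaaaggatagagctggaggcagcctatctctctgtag
Serpine2: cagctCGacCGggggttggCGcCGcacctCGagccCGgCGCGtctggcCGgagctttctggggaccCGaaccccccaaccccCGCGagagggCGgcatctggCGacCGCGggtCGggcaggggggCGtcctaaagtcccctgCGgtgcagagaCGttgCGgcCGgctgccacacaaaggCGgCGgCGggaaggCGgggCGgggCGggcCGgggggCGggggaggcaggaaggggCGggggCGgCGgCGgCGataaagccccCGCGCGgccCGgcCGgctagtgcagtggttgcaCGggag

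The 35 members with a promoter that were called lower in KO mTEChi had a median of 3 CpG (range 0 to 41), and the 11 tested members with a promoter that were not called lower had 2 (range 0 to 15), a difference that was not tested. Among the 5 promoters printed, that of Serpine2 held 41 CpG, that of Serpinb9 held 5, that of Serpinb9b held 2, that of Serpinb3a held 1, and that of Serpinb7 had no CG.

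The labels were checked with marker genes. Psmb11, a proteasome subunit of cortical epithelium, stood at 0.569 to 2.12 RPKM in the 12 medullary libraries and at 10.1 to 21.8 RPKM in the 6 cortical ones. RPKM are aligned bases per kilobase of gene model, scaled by a library total. Of the 7 genes on the cortical list, 3 went against it and averaged more in WT mTEChi than in WT cTEC. Foxn1 averaged 56.4 RPKM in WT mTEChi and 33.3 RPKM in WT cTEC, Dll4 15.04 RPKM in WT mTEChi and 5.01 RPKM in WT cTEC, and Ccl25 242 RPKM in WT mTEChi and 182 RPKM in WT cTEC. Aire stood at 1001 to 1126 RPKM in KO mTEChi and at 658 to 693 RPKM in WT mTEChi. The tables hold 1 value per gene, so a deletion inside Aire cannot be checked with it. Depth was 4.54 to 18.1 Gb of bases on genes per library.

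Serpin expression was broadest in WT mTEChi, as was that of all genes. At 0.1 RPKM or more, 39 of the 63 members were detected in every KO mTEChi library and 58 to 59 in the WT mTEChi libraries. KO mTEClo libraries detected 40 to 44, WT mTEClo libraries 39 to 43, KO cTEC libraries 36 to 40 and WT cTEC libraries 34 to 37. Over all genes, 16428 to 16512 were detected in the KO mTEChi libraries and 19428 to 19558 in the WT mTEChi libraries. The libraries of the other groups detected 15417 to 16492 genes. All 63 members had a value above 0 in each WT mTEChi library, against 49 to 52 in the KO mTEChi libraries. Depth averaged 9.31 Gb on genes in KO mTEChi and 13.3 Gb in WT mTEChi, and its part in these counts was not tested. In KO mTEChi, 10 members were listed at 0 in all 3 libraries. How many of all genes were above 0, or at 0 in all 3 libraries, was not counted. The mean was highest in WT mTEChi for 41 members, in KO mTEChi for 7, in WT mTEClo for 7, in WT cTEC for 5 and in KO cTEC for 3. The same count over all genes was not made. The summed level of all members was 609 ± 70.6 RPKM in KO mTEChi and 988 ± 23.8 RPKM in WT mTEChi (mean ± SD, n = 3 libraries each, as for all such values here). It was 599 ± 32.6 RPKM in KO mTEClo and 857 ± 40.6 RPKM in WT mTEClo, and 648 ± 33.4 RPKM in KO cTEC and 681 ± 32.6 RPKM in WT cTEC. The libraries of KO and WT did not overlap in mTEChi or mTEClo and overlapped in cTEC. In sorted pools such as these, fewer cells expressing a gene and less RNA in each cell cannot be told apart.

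**Figure D1:**
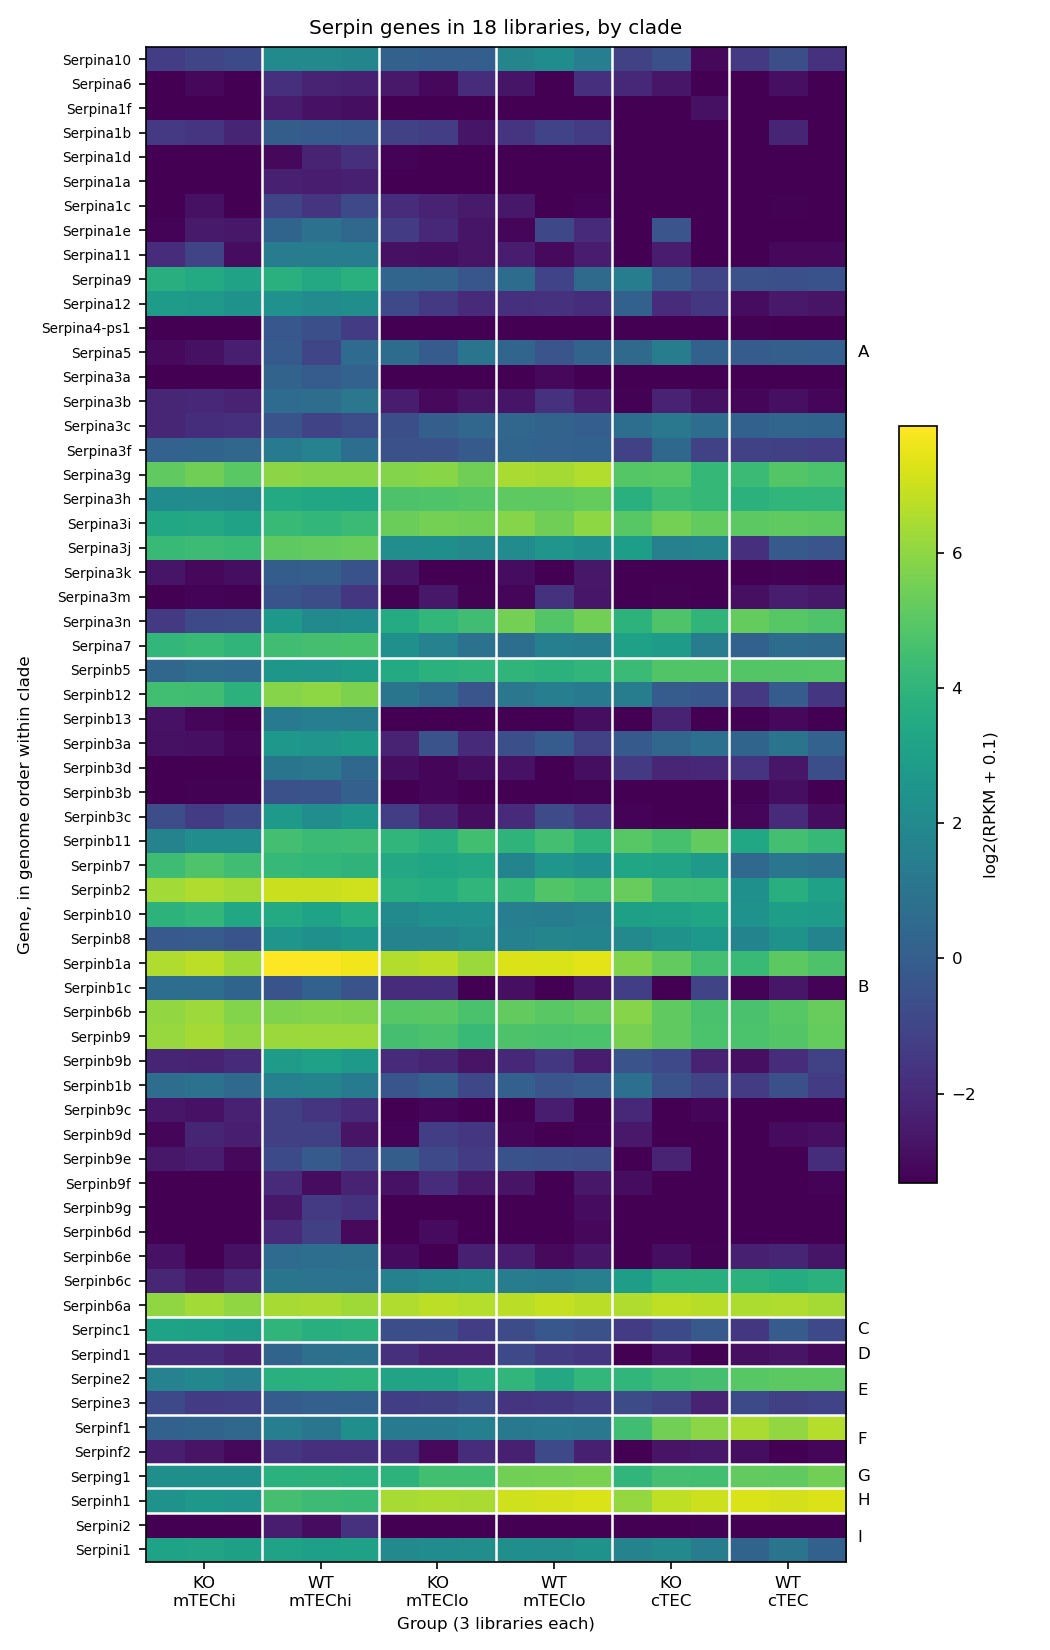
Level of 62 of the 63 serpin genes in the 18 libraries as log2(RPKM + 0.1), with genes in rows by clade (letters at the right) and libraries in columns by group. The KO mTEChi columns have more dark cells than the WT mTEChi ones: over all 63 members, 39 reached 0.1 RPKM in each KO mTEChi library and 58 to 59 in the WT mTEChi libraries. Over all genes, 16428 to 16512 reached it in the KO mTEChi libraries and 19428 to 19558 in the WT mTEChi libraries.

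Genotype was compared first in mTEChi, the population with the highest Aire level. Serpins were lower in KO mTEChi across clades, from intracellular epithelial serpins to liver-type plasma inhibitors. Serpinb3a, Serpinb9b, Serpinb13 and Serpinb3d were near 0 RPKM or listed at 0 in KO mTEChi and clearly expressed in WT mTEChi. In contrast, Serpinb9, Serpinb6b, Serpina9, Serpina12 and Serpini1 were well expressed in both genotypes and were not called. Of the 57 members tested with limma on log2(RPKM + 0.1), 44 were called lower and 1 higher at a Benjamini-Hochberg adjusted p under 0.05. Over all 19451 genes tested, 52.8% were called lower and 9.57% higher. The median log2 fold change was -1.55 over the 57 members and -0.39 over all genes.

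Part of that count is fixed by the filter, which asked for 0.1 RPKM in at least 3 libraries. For 11 members it was met only with the WT mTEChi libraries counted: Serpina1c, Serpina11, Serpina4-ps1, Serpina3a, Serpina3k, Serpina3m, Serpinb9c, Serpinb9f, Serpinb6e, Serpinb13 and Serpinb3b. Of these, Serpinb9f reached 0.1 RPKM in WT mTEChi replicates 1 and 3 and in KO mTEClo replicate 2. Of the 46 members that pass without WT mTEChi, 33 were called lower, against 48.7% of the 17704 genes that pass in the same way. The other 6 members, Serpina1a, Serpina1d, Serpina1f, Serpinb6d, Serpinb9g and Serpini2, were not tested. They were listed at 0 in all KO mTEChi libraries and had 0.019 to 0.329 RPKM in the WT mTEChi libraries. The direction of all genes depends on the scaling: 84.7% of all calls were lower with the deposited RPKM, and 44.2% after quantile normalization, which moved the median of all genes to 0.08. Under quantile normalization 31 members were still called lower and 4 higher, 11 members changed sign, and the median of the 57 was -0.69. Of the members called lower, Serpinf2, Serpina6, Serpina1b, Serpina3c, Serpina3f, Serpinb9c, Serpinb9f and Serpine3 were among those that changed sign.

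The largest falls were in clade B, the intracellular serpins. Serpinb3a, of the mouse group related to the human squamous cell carcinoma antigens, had 0.0424, 0.0378 and 0.0130 RPKM in KO mTEChi, against 6.11, 5.62 and 6.85 RPKM in WT mTEChi. The KO values were all near 0, the groups did not overlap, and the log2 fold change was -5.59 ± 0.40 (SE; limma adjusted p = 6.74e-09). Serpinb9b had 0.125, 0.114 and 0.156 RPKM in KO mTEChi and 6.90, 8.30 and 6.56 RPKM in WT mTEChi. It fell by 4.98 ± 0.44 on the log2 scale (SE; limma adjusted p = 7.96e-08), also without overlap. Log2 fold changes of members this close to 0 depend on the 0.1 added before the logarithm, which makes them smaller than the ratio of the levels.

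Serpinb13, known in human as a keratinocyte serpin, had 0.0445, 0.0149 and 0 RPKM in KO mTEChi, against 2.40, 2.72 and 2.60 RPKM in WT mTEChi. Serpinb3d was listed at 0 in all 3 KO mTEChi libraries and had 1.92, 2.11 and 1.28 RPKM in WT mTEChi. Serpinb3c stood at 0.521, 0.295 and 0.455 RPKM in KO mTEChi and at 6.66, 4.36 and 5.83 RPKM in WT mTEChi. In none of these 3 genes did KO and WT libraries overlap, and all were called lower. Serpinb6e, of a mouse-expanded branch related to human SERPINB6, had 0.0464, 0 and 0.0419 RPKM in KO mTEChi and 1.41, 1.57 and 1.66 RPKM in WT mTEChi, and was called lower too. Serpinb13 and Serpinb6e were tested only through WT mTEChi, so their direction was fixed by the filter.

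Other clade B members kept a sizeable level in KO mTEChi. Serpinb1a, an inhibitor of neutrophil serine proteases and the highest serpin in WT mTEChi, had 92.2, 109 and 78.4 RPKM in KO mTEChi, against 235, 221 and 201 RPKM in WT mTEChi. The groups did not overlap, and the log2 fold change was -1.24 ± 0.24 (SE; limma adjusted p = 0.000331). Serpinb12, an epithelial serpin, averaged 19.6 RPKM in KO mTEChi and 56.7 RPKM in WT mTEChi, and was called lower. Serpinb2, an inhibitor of plasminogen activators, had 81.0, 92.8 and 82.7 RPKM in KO mTEChi and 126, 126 and 134 RPKM in WT mTEChi. These libraries did not overlap either, yet its log2 fold change of -0.59 ± 0.28 was not called (limma adjusted p = 0.0803). It was called after quantile normalization, at -0.69, and when the 2 mTEChi groups were fitted alone.

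Serpinb9, an intracellular inhibitor of granzyme B, had 70.9, 81.8 and 63.9 RPKM in KO mTEChi and 74.0, 74.2 and 76.0 RPKM in WT mTEChi. Its KO libraries lay on both sides of the WT ones, and its log2 fold change was -0.06 ± 0.17 (SE; limma adjusted p = 0.794). Serpinb7, known in human for skin, was the member called higher, with 20.8, 27.8 and 21.9 RPKM in KO mTEChi and 17.9, 17.0 and 15.6 RPKM in WT mTEChi. All KO values were above all WT values, but the log2 fold change of 0.47 ± 0.19 was close to the threshold (limma adjusted p = 0.0455). It was no longer called without any 1 library except KO mTEChi replicate 1, with no filter, or with a pseudocount of 0.01. Serpinb10, a serpin of blood cells in the same cluster, stood at 0.36 ± 0.17 on the same log2 scale and was not called (limma adjusted p = 0.0815).

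**Figure D2:**
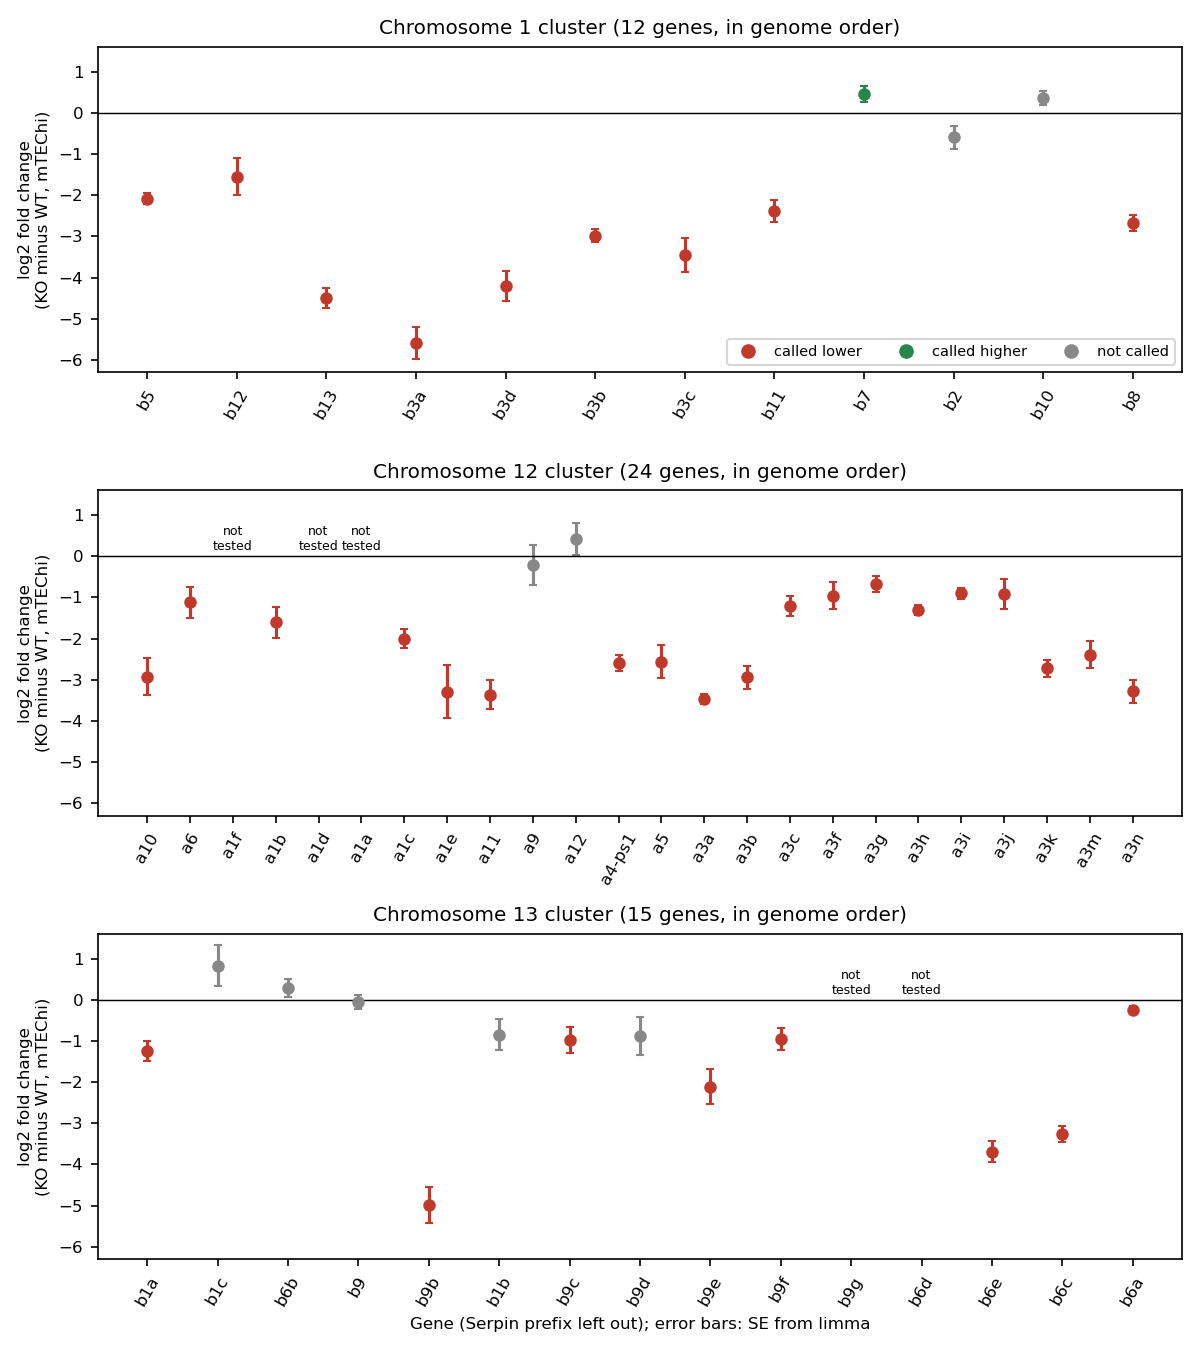
Log2 fold change of KO over WT in mTEChi, with the SE from limma, for the members of the 3 serpin clusters in genome order. Most points lie below 0, called lower in red, while Serpinb7 (0.47, green) and uncalled members in grey, such as Serpinb9 (-0.06), stand among genes with large falls such as Serpinb9b (-4.98) and Serpinb3a (-5.59).

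Along the genome, members called lower and members not called stood side by side. In the chromosome 1 cluster 9 of 12 members were called lower and Serpinb7 higher, with Serpinb2 and Serpinb10 uncalled. In the chromosome 12 cluster 19 of 21 tested members were called lower, leaving Serpina9 and Serpina12. In the chromosome 13 cluster 8 of 13 tested members were called lower. Over all genes tested, 52.8% were called lower. Among members that pass the filter without WT mTEChi, 7 of 10 were called lower on chromosome 1 and 13 of 15 on chromosome 12. On chromosome 13 it was 5 of 10, against 48.7% of all genes that pass in the same way. The chromosome 13 counts thus stood near the shares over all genes. The genes next to the clusters are given for comparison. Ppp4r4, before the chromosome 12 cluster, averaged 0.343 ± 0.0213 RPKM in KO mTEChi and 1.01 ± 0.0398 RPKM in WT mTEChi. Vps4b, before the chromosome 1 cluster, averaged 25.2 ± 0.866 RPKM in KO mTEChi and 27.7 ± 1.25 RPKM in WT mTEChi. Ripk1, after the chromosome 13 cluster, averaged 7.29 ± 0.164 RPKM in KO mTEChi and 8.90 ± 0.179 RPKM in WT mTEChi. Gsc, after the chromosome 12 cluster, averaged 0.0142 ± 0.00485 RPKM in KO mTEChi and 0.258 ± 0.0686 RPKM in WT mTEChi.

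In clade A, the secreted serpins, 19 of 22 tested members were called lower in KO mTEChi, against 52.8% of all genes tested. Of these 22, 6 were tested only through WT mTEChi. Of the other 16, 13 were called lower, against 48.7% of all genes that pass in the same way. Serpina3n, an acute-phase serpin, had 0.270, 0.461 and 0.487 RPKM in KO mTEChi, against 6.18, 3.97 and 4.22 RPKM in WT mTEChi. All KO libraries were far below all WT libraries. It fell by 3.27 ± 0.28 on the log2 scale (SE; limma adjusted p = 5.27e-08). Serpina3a was listed at 0 in all KO mTEChi libraries and had 1.10, 0.869 and 1.05 RPKM in WT mTEChi. Serpina11 had 0.170, 0.397 and 0.0283 RPKM in KO mTEChi and 2.57, 2.56 and 2.51 RPKM in WT mTEChi. Serpina1e, of the antitrypsin family, had 0.00843, 0.0773 and 0.0666 RPKM in KO mTEChi and 1.10, 1.74 and 1.24 RPKM in WT mTEChi. All 3 were called lower without overlap. Serpina3a and Serpina11 were tested only through WT mTEChi, so their direction was fixed by the filter. Serpina3g, an intracellular inhibitor of cathepsins and the highest of the clade in WT mTEChi, averaged 37.0 RPKM in KO mTEChi and 58.9 RPKM in WT mTEChi and fell by 0.68 ± 0.20 (limma adjusted p = 0.0071).

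The clade A members that were not called were Serpina9, Serpina12 and Serpina7. Serpina9, known from human germinal centre B cells, had 13.0, 11.3 and 8.68 RPKM in KO mTEChi and 13.6, 10.6 and 13.7 RPKM in WT mTEChi. Serpina12, an adipose serpin called vaspin, had 7.18, 6.36 and 5.06 RPKM in KO mTEChi and 4.98, 4.11 and 4.72 RPKM in WT mTEChi, which do not overlap. Its log2 fold change of 0.41 ± 0.39 was not called (limma adjusted p = 0.376) and was called after quantile normalization. Serpina7, a thyroid hormone carrier, averaged 17.4 RPKM in KO mTEChi and 23.3 RPKM in WT mTEChi.

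Members of the smaller clades followed. Serpind1, heparin cofactor II, averaged 0.1495 RPKM in KO mTEChi and 1.51 RPKM in WT mTEChi and fell by 2.68 ± 0.24 on the log2 scale (limma adjusted p = 8.43e-08). Serpinc1, antithrombin, had 9.02, 8.37 and 6.95 RPKM in KO mTEChi and 16.1, 12.9 and 14.4 RPKM in WT mTEChi. Although these did not overlap, its log2 fold change of -0.83 ± 0.33 (limma adjusted p = 0.0375) was no longer called when any 1 of the 6 libraries was left out. Serping1, the inhibitor of the first complement proteases, had 4.62, 4.74 and 4.63 RPKM in KO mTEChi and 14.1, 14.3 and 13.8 RPKM in WT mTEChi. The libraries of each genotype lay close together, and the gene was called lower. Serpinh1 had 5.31, 6.25 and 5.67 RPKM in KO mTEChi, against 24.05, 20.6 and 19.4 RPKM in WT mTEChi, and was called lower too. Serpine2, a cell-bound inhibitor of thrombin and urokinase, averaged 3.17 RPKM in KO mTEChi and 14.2 RPKM in WT mTEChi and fell by 2.13.

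Serpinf1, a secreted factor that acts on blood vessels, had 1.01, 1.13 and 1.27 RPKM in KO mTEChi and 2.63, 1.999 and 4.67 RPKM in WT mTEChi. It fell by 1.29 ± 0.31 on the log2 scale (limma adjusted p = 0.00186), and after quantile normalization the value was -0.46 and not called. Serpini1, an inhibitor known from neurons, had 8.89, 9.18 and 8.20 RPKM in KO mTEChi and 8.54, 7.95 and 8.33 RPKM in WT mTEChi. These overlapped, and it was not called.

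Genes of other cell types were counted in the same comparison, to be read against the 52.8% of all genes called lower. Hepatocyte genes other than serpins were called lower in 8 of 9 (3 of the 9 were tested only through WT mTEChi), with a summed level of 5.90 to 7.06 RPKM in KO mTEChi and 89.2 to 119.7 RPKM in WT mTEChi, and Fgb was listed at 0 in KO mTEChi. Cornified keratinocyte genes were called lower in 7 of 7, at 76.8 to 114.7 RPKM in KO mTEChi and 266 to 279.8 RPKM in WT mTEChi. The 4 cytotoxic lymphocyte genes tested were lower, at 0.620 to 0.967 RPKM in KO mTEChi and 12.5 to 13.1 RPKM in WT mTEChi for all 6, with Ncr1 listed at 0 in KO mTEChi. Of the 4 tested, 1 passed the filter only through WT mTEChi. Fibroblast genes were called lower in 5 of 7 and higher in 1, with sums of 36.9 to 46.8 RPKM in KO mTEChi and 44.5 to 49.3 RPKM in WT mTEChi. Macrophage and dendritic cell genes were lower in 5 of 7 and higher in 1, at 359 to 390.1 RPKM in KO mTEChi and 348 to 377 RPKM in WT mTEChi. Endothelial genes were lower in 3 of 6, at 6.30 to 8.66 RPKM in KO mTEChi and 8.88 to 13.8 RPKM in WT mTEChi. Thymocyte genes were lower in 3 of 7, at 11.3 to 22.0 RPKM in KO mTEChi and 30.6 to 49.7 RPKM in WT mTEChi. After quantile normalization 2 of 7 fibroblast genes were called lower and 2 higher, 1 of 7 thymocyte genes was called lower, and 4 of 6 endothelial genes changed sign, with a median log2 fold change of 0.39 against -1.08. Their part in the serpin values was not tested.

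**Figure D3:**
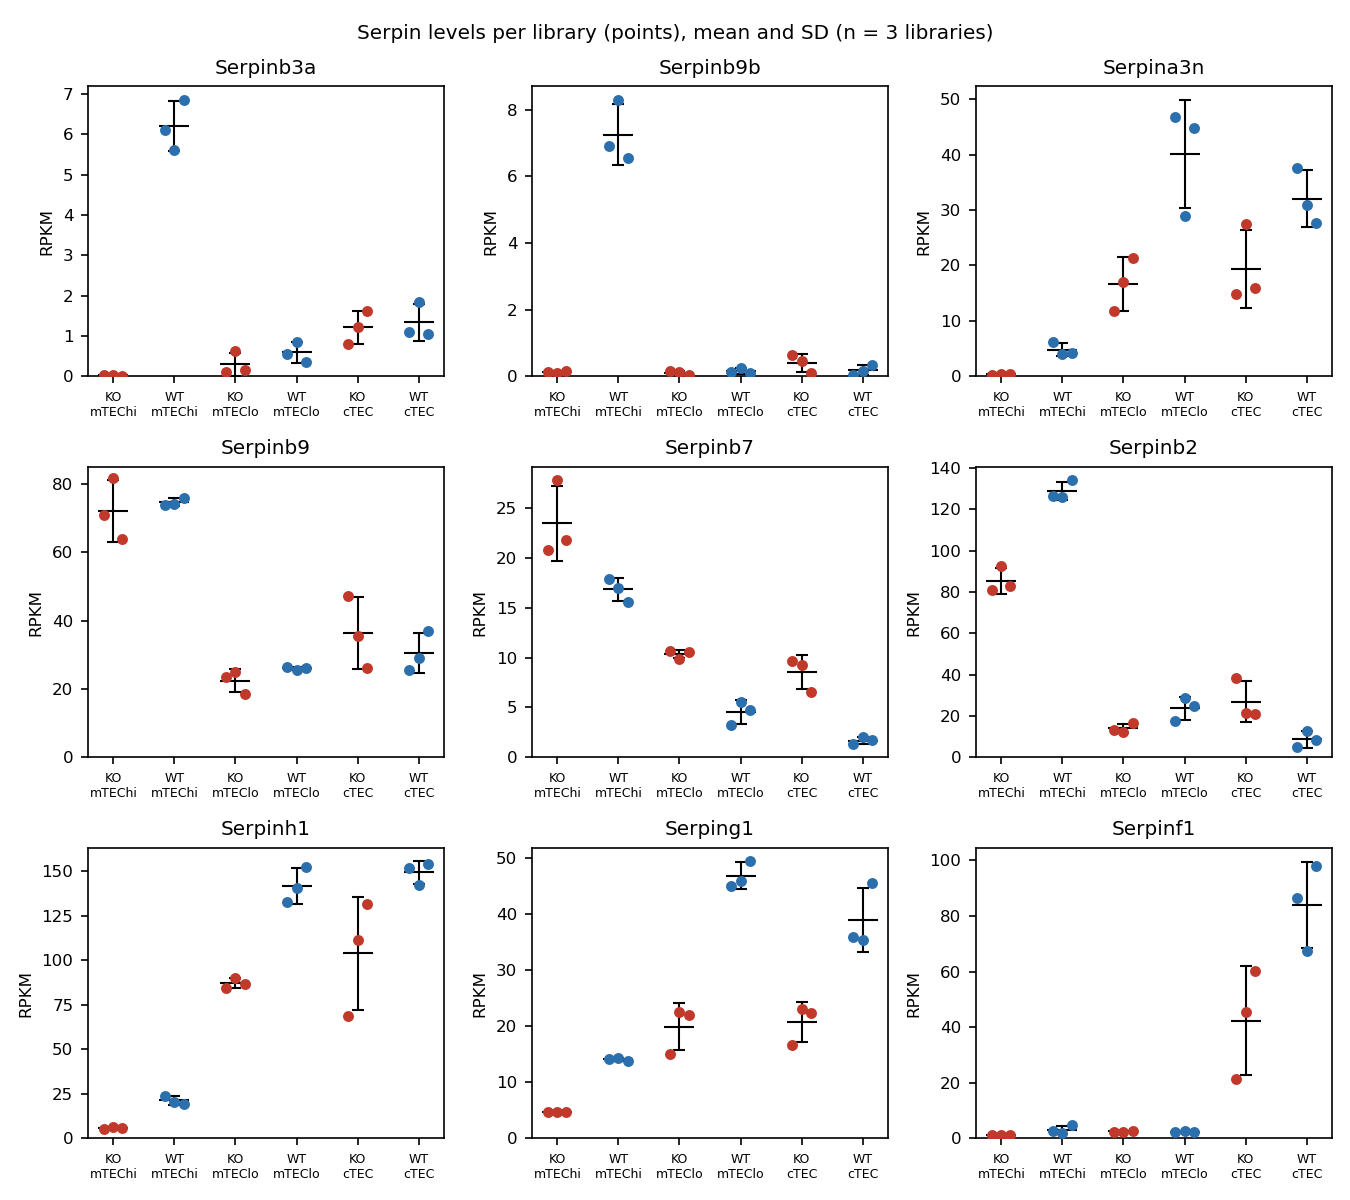
RPKM of 9 serpins in each library (points, red for KO and blue for WT) with the mean and SD of the 3 libraries, on linear axes that start at 0. Serpinb3a and Serpinb9b are high in WT mTEChi, at 5.62 to 6.85 and 6.56 to 8.30 RPKM, while Serpinb9 lies at 63.9 to 81.8 RPKM in KO mTEChi and 74.0 to 76.0 RPKM in WT mTEChi.

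The proteases that serpins can inhibit, and the other inhibitors, were counted by lists in the same comparison, in which 52.8% of all genes were called lower and 9.57% higher. Leukocyte granule proteases, the targets of many clade B serpins, were called lower in 12 of 12 tested genes, with a median log2 fold change of -5.06. Of these 12, 7 met the filter only with the WT mTEChi libraries counted, which fixes their direction, and the other 5 were called lower too. Mcpt1, a mast cell protease, averaged 0.00871 RPKM in KO mTEChi and 8.95 RPKM in WT mTEChi, and Tpsb2, a mast cell tryptase, 0.0086 RPKM in KO mTEChi and 8.34 RPKM in WT mTEChi. Pancreatic serine proteases were called lower in 11 of 12, of which 6 were tested only through WT mTEChi, and in 5 of the 6 that pass otherwise. Ctrb1, a chymotrypsin precursor, averaged 0.290 RPKM in KO mTEChi and 43.9 RPKM in WT mTEChi. The highest uncalled gene of that list, Ctrl, averaged 2.02 RPKM in KO mTEChi and 2.57 RPKM in WT mTEChi. Cma1, Mcpt1 and Tpsb2 of the granule list and Cela3b and Prss1 of the pancreatic list were near 0 or listed at 0 in every other group, and copies within these gene families can share reads.

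Coagulation and fibrinolysis proteases were called lower in 9 of 11 (median -1.38), and in 6 of the 8 that pass the filter without WT mTEChi. Proc, the zymogen of activated protein C and a target of Serpina5, averaged 0.0202 RPKM in KO mTEChi and 0.760 RPKM in WT mTEChi. Proc was tested only through WT mTEChi, so its direction was fixed by the filter. After quantile normalization 2 of these 11 were called lower and 1 higher. Complement proteases were called lower in 5 of 7 (median -1.40). C1s, a target of Serping1, averaged 2.01 RPKM in KO mTEChi and 7.68 RPKM in WT mTEChi, and Cfb, uncalled, 20.9 RPKM in KO mTEChi and 27.3 RPKM in WT mTEChi. After quantile normalization 3 of these 7 were called lower and 1 higher. Serine proteases of epithelium, many of them membrane-bound, had 5 of 12 called lower and 2 higher, a lower share below that of all genes. Tmprss11a averaged 0.0536 RPKM in KO mTEChi and 1.38 RPKM in WT mTEChi, and St14, the protease matriptase, 67.8 RPKM in KO mTEChi and 51.3 RPKM in WT mTEChi. Tmprss11a was tested only through WT mTEChi, which fixes its direction, and 4 of the other 11 genes were called lower.

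Cathepsins, lysosomal proteases, were called lower in 4 of 12 and higher in 3 (median 0.07). Ctsl averaged 29.2 RPKM in KO mTEChi and 98.0 RPKM in WT mTEChi, and Ctss, which processes the invariant chain in antigen-presenting cells, 237 RPKM in KO mTEChi and 132 RPKM in WT mTEChi. Inhibitors that are not serpins were called lower in 26 of 31 tested genes and higher in 1 (median -2.50), and in 20 of the 25 that pass the filter without WT mTEChi. Slpi, a secreted inhibitor of leukocyte elastase, averaged 1.496 RPKM in KO mTEChi and 35.6 RPKM in WT mTEChi. Timp3, an inhibitor of metalloproteinases, was the gene called higher, at 157 RPKM in KO mTEChi and 115 RPKM in WT mTEChi. Cstb, an inhibitor of cathepsins, averaged 345 RPKM in KO mTEChi and 299 RPKM in WT mTEChi and was not called.

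In mTEClo few serpins changed with genotype. Called lower were Serping1, Serpina3n, Serpinh1, Serpina10, Serpind1, Serpinb1a and Serpina3g, and called higher Serpinb7, Serpinb10 and Serpina1c. Of 57 members 7 were called lower and 3 higher, against 8.04% and 7.93% of all genes tested, and the median of the members was -0.18 against -0.04 over all genes. Serping1 had 15.1, 22.6 and 22.1 RPKM in KO mTEClo, against 45.1, 45.8 and 49.6 RPKM in WT mTEClo. The libraries did not overlap, and the log2 fold change was -1.25 ± 0.14 (SE; limma adjusted p = 8.90e-05). Serpina3n had 11.7, 17.0 and 21.3 RPKM in KO mTEClo and 46.7, 29.002 and 44.8 RPKM in WT mTEClo, and was called lower (-1.27). Serpinh1 had 84.4, 90.0 and 86.7 RPKM in KO mTEClo and 132, 141 and 152 RPKM in WT mTEClo, again without overlap (-0.70). C1s and C1ra, the complement proteases that Serping1 inhibits, were called lower as well: C1s averaged 30.3 RPKM in KO mTEClo and 127 RPKM in WT mTEClo.

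Serpina10, an inhibitor of coagulation factor X that acts with protein Z, had 1.003, 0.912 and 0.931 RPKM in KO mTEClo and 3.28, 4.26 and 2.70 RPKM in WT mTEClo (-1.72). Serpinb1a averaged 92.6 RPKM in KO mTEClo and 159.0 RPKM in WT mTEClo (-0.80), and Serpina3g 52.3 RPKM in KO mTEClo and 88.1 RPKM in WT mTEClo (-0.76). These 3 were called lower, but lost the call in 3 to 5 of the 6 fits without 1 library. Without WT mTEClo replicate 1, 3 members were called lower, and without KO mTEClo replicate 3, 4. Serpinb7 had 10.7, 9.85 and 10.6 RPKM in KO mTEClo, against 3.25, 5.58 and 4.76 RPKM in WT mTEClo. Every KO library was above every WT library, and it was called higher by 1.21 ± 0.19 (limma adjusted p = 0.000806). Serpinb10 averaged 4.55 RPKM in KO mTEClo and 2.68 RPKM in WT mTEClo and was called higher (0.74). With levels centred on housekeeping genes, 11 members were called lower, and 71.2% of all calls were lower, against 50.3% with the deposited values.

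Macrophage and dendritic cell genes summed to 71.3 to 141 RPKM in KO mTEClo and 27.6 to 35.5 RPKM in WT mTEClo, with 3 of 7 called higher. Lyz2 made up most of that sum, at a mean of 88.0 RPKM in KO mTEClo and 25.9 RPKM in WT mTEClo. Itgam ran the other way, at 0.657 RPKM in KO mTEClo and 1.12 RPKM in WT mTEClo. Fibroblast genes summed to 58.3 to 94.2 RPKM in KO mTEClo and 82.2 to 109 RPKM in WT mTEClo, with 1 of 7 called lower and 2 higher. Their part in the falls of Serping1 and Serpinh1 was not tested.

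The genotype effect was then compared between mTEChi and mTEClo within the same fit. For 33 of 57 members the log2 fold change was lower in mTEChi than in mTEClo, and for 1 it was higher, against 40.9% and 6.01% of all genes. Of the 46 members that pass the filter without WT mTEChi, 23 were lower, against 36.0% of genes that pass in the same way. Serpinb6c, of the branch related to human SERPINB6, had 0.130, 0.0617 and 0.132 RPKM in KO mTEChi, against 1.93, 1.83 and 1.84 RPKM in WT mTEChi. In the lo gate it had 2.91, 3.62 and 4.04 RPKM in KO mTEClo and 2.58, 2.39 and 2.83 RPKM in WT mTEClo. It was low in KO mTEChi and not in KO mTEClo, and the effects differed by -3.68 ± 0.28 on the log2 scale (SE; limma adjusted p = 4.57e-08). Serpinb3a averaged 0.297 RPKM in KO mTEClo and 0.593 RPKM in WT mTEClo, and its effects differed by -4.63 ± 0.56 (limma adjusted p = 6.40e-06). Quantile normalization left 22 members lower and 3 higher, and changed the lower share of all calls to 43.8%, against 87.2%.

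In cTEC 5 of 57 members were called lower and 9 higher in KO, against 6.76% and 13.3% of all genes tested. Those called higher were, apart from Serpinb11, also called higher in WT mTEChi than in WT cTEC, as were 44 of all 57 members. Both comparisons use the same WT cTEC libraries, so a low value there raises a member in both. No conclusion is drawn from the overlap. Serpinb7 had 9.72, 9.27 and 6.58 RPKM in KO cTEC, against 1.31, 2.03 and 1.71 RPKM in WT cTEC. Without overlap, it was higher by 2.27 ± 0.19 on the log2 scale (limma adjusted p = 2.14e-06). Serpina3j had 7.74, 2.83 and 3.15 RPKM in KO cTEC and 0.185, 0.804 and 0.678 RPKM in WT cTEC. Serpinb2 had 38.4, 21.5 and 20.9 RPKM in KO cTEC and 4.82, 12.8 and 8.28 RPKM in WT cTEC. In both, KO cTEC replicate 1 was the highest library. Serpina7 averaged 6.05 RPKM in KO cTEC and 1.27 RPKM in WT cTEC, and Serpini1 3.17 RPKM in KO cTEC and 1.33 RPKM in WT cTEC. All 5 were called higher.

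Serpinf1 had 21.4, 45.3 and 60.1 RPKM in KO cTEC, against 86.6, 67.3 and 98.0 RPKM in WT cTEC, and was called lower at -1.10 ± 0.31 (SE; limma adjusted p = 0.0202). Serpinh1 had 68.9, 111 and 131 RPKM in KO cTEC and 152, 142 and 154 RPKM in WT cTEC. In both, KO cTEC replicate 1 was the lowest library. Without that library the log2 fold changes were -0.67 for Serpinf1 and -0.30 for Serpinh1, neither was called, and 2 members in all were called lower and 7 higher. Without WT cTEC replicate 1, 2 were called lower, and without WT cTEC replicate 3, 3. Serping1 had 16.6, 23.1 and 22.4 RPKM in KO cTEC and 35.9, 35.4 and 45.5 RPKM in WT cTEC, and Serpine2 averaged 20.3 RPKM in KO cTEC and 32.4 RPKM in WT cTEC. Both were called lower.

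These calls rest on the spread shared by all 6 groups. With the 6 cTEC libraries alone, limma called 0 members lower and 0 higher, 6 and 9 had an unadjusted p under 0.05, and 6 and 12 of all genes were called. Aire itself had 95.6, 35.9 and 26.997 RPKM in KO cTEC, against 2.09, 3.95 and 7.39 RPKM in WT cTEC, and Cd80, a costimulatory protein of mature medullary epithelium, 21.3, 8.81 and 6.15 RPKM in KO cTEC and 1.4996, 3.98 and 5.76 RPKM in WT cTEC. The mTEC list had 5 of 8 genes called higher in KO cTEC. Krt14 of that list ran the other way, at a mean of 303 RPKM in KO cTEC and 325 RPKM in WT cTEC. Fibroblast genes summed to 188 to 422 RPKM in KO cTEC and 401 to 461 RPKM in WT cTEC, and macrophage and dendritic cell genes to 109 to 153 RPKM in KO cTEC and 24.8 to 62.6 RPKM in WT cTEC. Lyz2 made up most of the latter sum, at a mean of 119 RPKM in KO cTEC and 38.0 RPKM in WT cTEC. The part of all these genes in the serpin values was not tested. Against the effect in cTEC, in a contrast added after seeing the data, 45 of 57 members had a lower genotype effect in mTEChi, and 44.8% of all genes did. These 45 include the 11 members tested only through WT mTEChi, so part of that count is fixed by the filter. For KO against WT in cTEC, the lower share of all calls was 49.4% after quantile normalization, against 33.6%.

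**Figure D4:**
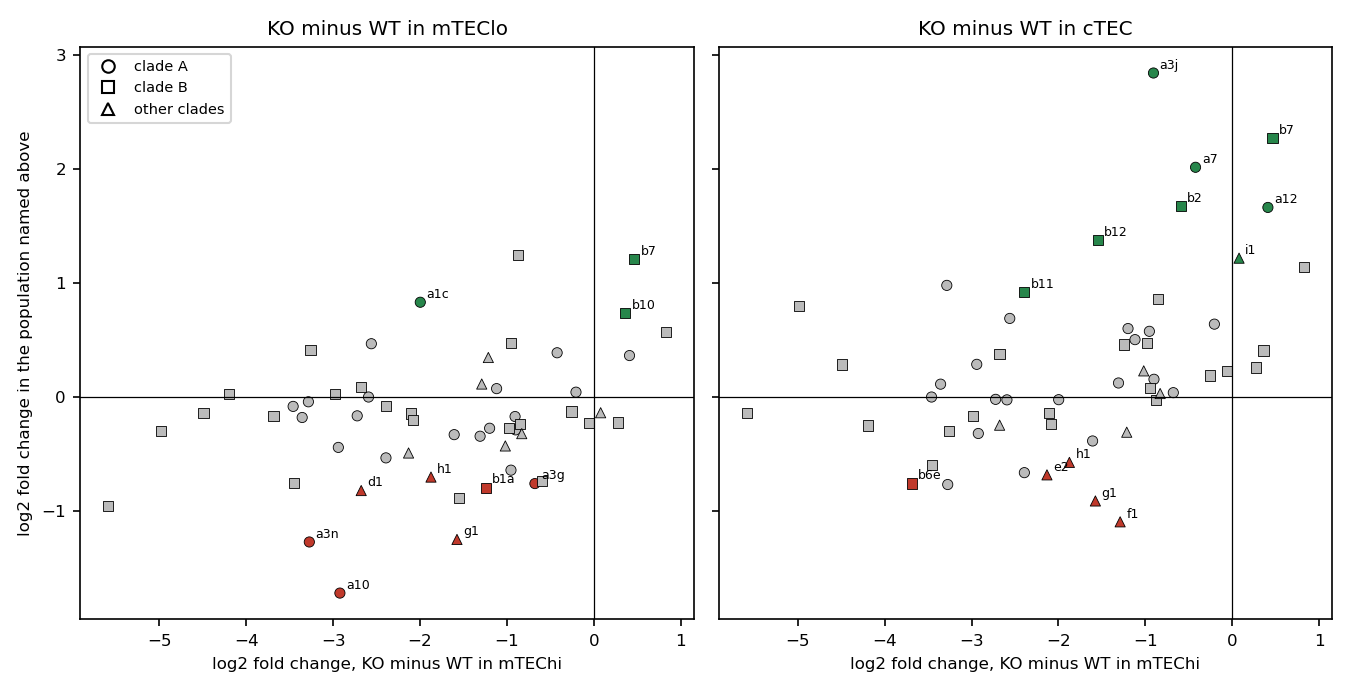
Log2 fold change of KO over WT in mTEClo (left) and cTEC (right) against that in mTEChi for 56 of the 57 tested members, with symbols by clade and fill by the call in the population of the panel (red lower, green higher, grey not called). Serpinb7 lies above 0 in all 3 populations, at 0.47 in mTEChi, 1.21 in mTEClo and 2.27 in cTEC, and Serping1 below 0 in all 3.

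Serpinb7, Serping1 and Serpinh1 were called in all 3 populations in the same direction each. The libraries differed between populations, but the calls of each gene came from the same fit and shared its estimate of the spread. How many of all genes were called in this way was not counted. Serpinb7 was called higher at 0.47, 1.21 and 2.27 on the log2 scale in mTEChi, mTEClo and cTEC. Serping1 was called lower at -1.57, -1.25 and -0.91, and Serpinh1 at -1.87, -0.70 and -0.57. The mTEChi call of Serpinb7 was lost in 5 of 6 fits without 1 library, the cTEC call of Serpinh1 was lost without KO cTEC replicate 1, WT cTEC replicate 1 or WT cTEC replicate 3, and none of the 3 cTEC calls stood with the cTEC groups alone (limma).

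Populations were compared next within WT, with WT mTEChi libraries that also serve in the genotype comparison above. The hi gate held the higher level of most serpins, while Serpinh1, Serping1, Serpina3n and Serpinb5 were among those higher in the lo gate. Of 57 members 37 were called higher and 10 lower in WT mTEChi than in WT mTEClo, against 41.6% and 31.1% of all genes tested. Of the 46 members that pass the filter without WT mTEChi, 27 were higher, against 36.3% of genes. Serpinb12 had 56.7, 63.2 and 50.2 RPKM in WT mTEChi and 2.06, 2.68 and 2.45 RPKM in WT mTEClo, higher by 4.51 ± 0.44 on the log2 scale (limma adjusted p = 1.65e-07). Serpinc1 averaged 14.5 RPKM in WT mTEChi and 0.595 RPKM in WT mTEClo. Serpina12 averaged 4.605 RPKM in WT mTEChi and 0.192 RPKM in WT mTEClo.

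Serpinh1 averaged 21.3 ± 2.41 RPKM in WT mTEChi and 142 ± 10.1 RPKM in WT mTEClo, and Serpina3n 4.79 RPKM in WT mTEChi and 40.2 RPKM in WT mTEClo. Serpina3h averaged 10.3 RPKM in WT mTEChi and 35.4 RPKM in WT mTEClo, Serpina3i 18.5 RPKM in WT mTEChi and 53.9 RPKM in WT mTEClo, and Serpinb5, an epithelial serpin known as maspin, 6.15 RPKM in WT mTEChi and 15.7 RPKM in WT mTEClo. All 5 were called lower in WT mTEChi without overlap. After quantile normalization 28 members were higher and 13 lower, 10 changed sign, and 57.0% of all calls were lower, against 42.8%.

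In KO mice the same comparison of gates was more even. In KO mTEChi 17 of 57 members were called higher and 20 lower than in KO mTEClo, against 23.4% and 43.7% of all genes. Serpins with high levels in the hi gate of both genotypes were Serpinb2, with 81.0 to 92.8 RPKM in KO mTEChi and 12.3 to 16.4 RPKM in KO mTEClo, Serpina9, with 8.68 to 13.0 RPKM in KO mTEChi and 0.694 to 1.14 RPKM in KO mTEClo, and Serpinb12, Serpina12 and Serpinc1. Serpinb1c averaged 1.41 RPKM in KO mTEChi and 0.114 RPKM in KO mTEClo. Serpina3n averaged 0.406 RPKM in KO mTEChi and 16.7 RPKM in KO mTEClo, and was called lower (limma adjusted p = 1.90e-10). Serpinh1 averaged 5.74 RPKM in KO mTEChi and 87.0 RPKM in KO mTEClo. Serpinb5 averaged 1.38 RPKM in KO mTEChi and 13.7 RPKM in KO mTEClo, and Serpina5, the protein C inhibitor, 0.0518 RPKM in KO mTEChi and 1.42 RPKM in KO mTEClo. The lower share of all calls was 65.1%, against 53.5% after quantile normalization and 53.9% when centred on housekeeping genes.

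Among serpins lower in both medullary gates than in cortical cells of WT mice, Serpinf1 stood out in level. It had 2.63, 1.999 and 4.67 RPKM in WT mTEChi and 2.24, 2.46 and 2.17 RPKM in WT mTEClo, against 86.6, 67.3 and 98.0 RPKM in WT cTEC. Between WT mTEChi and WT cTEC, 44 of 57 members were called higher and 10 lower, against 46.6% and 31.8% of all genes, and among the 46 members that pass without WT mTEChi 33 were higher, against 41.7% of genes. Serpinb12 was the furthest apart, with a mean of 56.7 RPKM in WT mTEChi and 0.451 RPKM in WT cTEC (6.86 ± 0.44 on the log2 scale, limma adjusted p = 8.41e-10). Serpina3j averaged 36.2 RPKM in WT mTEChi and 0.556 RPKM in WT cTEC, and Serpinb3c 5.62 RPKM in WT mTEChi and 0.0663 RPKM in WT cTEC. Lower in WT mTEChi were Serpinb6c, with 1.87 RPKM in WT mTEChi and 13.6 RPKM in WT cTEC, and Serpinb5, with 6.15 RPKM in WT mTEChi and 29.5 RPKM in WT cTEC. After quantile normalization 33 members were higher and 12 lower, and 56.7% of all calls were lower, against 40.5%.

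Between WT mTEClo and WT cTEC, 20 members were called higher and 7 lower, against 24.6% and 18.2% of all genes. Serpinb1a averaged 159.0 RPKM in WT mTEClo and 26.4 RPKM in WT cTEC (2.62 ± 0.24, limma adjusted p = 4.11e-07). Serpina3g averaged 88.1 RPKM in WT mTEClo and 25.1 RPKM in WT cTEC, and Serpina10 3.41 RPKM in WT mTEClo and 0.337 RPKM in WT cTEC. Serpinb10 averaged 2.68 RPKM in WT mTEClo and 6.67 RPKM in WT cTEC, and Serpine2 14.7 RPKM in WT mTEClo and 32.4 RPKM in WT cTEC. Beside Serpinf1, Serpinb6c and Serpine2, fibroblast genes summed to 44.5 to 49.3 RPKM in WT mTEChi, 82.2 to 109 RPKM in WT mTEClo and 401 to 461 RPKM in WT cTEC, and their part was not tested. Dcn, which makes up most of that sum in cTEC, stood at 358 to 410.1 RPKM in WT cTEC, while other genes of the list ran the other way between WT mTEChi and WT cTEC. Col1a1, a collagen gene, stood at 11.6 to 14.6 RPKM in WT mTEChi and 1.76 to 3.33 RPKM in WT cTEC, and Pdgfrb, a growth factor receptor, averaged 11.1 RPKM in WT mTEChi and 1.09 RPKM in WT cTEC. After quantile normalization 54.6% of all calls were lower, against 42.5%.

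Several members share sequence, which limits their single values. In GENCODE transcripts, 35 of the 63 members shared no window of 100 bases with another gene, and 12 shared over 10% of their windows. They include Serpina1e (14.4%), Serpina11 (32.8%, with Gm28577), Serpinc1 (32.2%, with its overlapping neighbour Zbtb37) and Serpinb6a (partly with Nqo2). Whether reads were counted by strand is not given in the sources used here. Serpina1a to Serpina1d, Serpinb9c, Serpinb9e, Serpinb9f and Serpinb9g were the others, so their levels are uncertain.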

How the data were processed

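Libraries were made by Illumina protocols, per the labels. The authors deposited 1 table per library with RPKM and, as a coverage signal, the aligned bases per gene. The ratio of bases to RPKM of each gene was divided by the ratio of that gene in WT cTEC replicate 1. The result was 1 constant per library over the 4280 to 6220 genes compared (relative deviation at most 9.3e-07). Between 9.72% and 18.8% of values up to 2000 bases were multiples of 100 bases. Read counts could therefore not be rebuilt, and no count test was run. The build mm10 and CASAVA 1.8.2 come from the submitters' processing notes; the sources used here give no aligner settings or annotation. No counting interval is given.

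RPKM were used as deposited. The 19451 genes that reached 0.1 RPKM in 3 or more of the 18 libraries were modelled as log2(RPKM + 0.1) with limma 3.58.1 in R 4.3.3, with 6 group means and a trend, and p-values were adjusted by Benjamini-Hochberg over all tested genes. Fold changes on this scale understate the change of low genes. The fit was tested on simulated data. No 2 libraries held identical values. A single member is in the counts and is not reported here by itself or drawn. Named members were, per comparison, up to 6 called members per direction (10 for KO against WT in mTEChi) with the largest change, no overlap and a mean of 1 RPKM or more where higher, plus the highest uncalled member and the highest of each clade. From each list, up to 3 genes by adjusted p, smallest first, and the highest uncalled one qualified. Members and lists were chosen with earlier results of these data known. Further members are named as examples, chosen after their values were seen.

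Same-numbered libraries of WT mTEClo and WT cTEC deviated together weakly (correlations 0.107, 0.168 and 0.154 over genes). Over all 45 same-numbered pairs the correlations ran from -0.303 to 0.212, and 7 were over 0.1. Libraries with different numbers were not compared in this way, so whether the numbers pair any groups is not known. Alternatives were pseudocounts of 0.01 and 1, no filter, quantile normalization, centring on housekeeping genes, the groups compared alone, a replicate block, and leaving out each library. The block within WT mTEClo and WT cTEC, and the difference between genotype effects in mTEChi and cTEC, were added after seeing the data. Promoters are from RefSeq (GRCm38.p6), whose chromosome coordinates are those of mm10.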

Additional observations from a re-analysis of the deposited data

Results flagged for a closer look

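The genotype effect (log2 fold change of KO over WT) differed between mTEChi and mTEClo by the limma test of the difference itself for 9 of the members named for mTEClo or for that difference, each with an adjusted p under 0.05. A negative value means a lower effect in mTEChi. The differences were -4.69 for Serpinb9b, -4.63 for Serpinb3a, -4.36 for Serpinb13, -4.22 for Serpinb3d, -3.68 for Serpinb6c and -3.52 for Serpinb6e, all clade B. Serpinb9b, Serpinb13, Serpinb3d and Serpinb6e averaged 0.110, 0, 0.0267 and 0.0423 RPKM in KO mTEClo. In WT mTEClo they averaged 0.161, 0.0111, 0.0256 and 0.0548 RPKM. At such levels a fall in mTEClo could hardly show, so for these members the difference mostly repeats the fall in mTEChi. They were -2.00 for Serpina3n, -1.17 for Serpinh1 and -0.74 for Serpinb7. Serpinb3d was listed at 0 in all KO mTEChi libraries, so its value depends on the 0.1 added. Serpinb13 and Serpinb6e were tested only because WT mTEChi, where they are high, met the filter, so their direction was fixed by it. Over all genes tested, 40.9% had a lower effect in mTEChi.

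Between mTEChi and cTEC, a contrast added after seeing the data, the effect differed by the same test for 8 of the members named for cTEC. In this contrast 45 of 57 members and 44.8% of all genes had a lower effect in mTEChi. The 45 include the 11 members tested only through WT mTEChi, so part of that count is fixed by the filter. The differences were -3.75 for Serpina3j, -2.44 for Serpina7, -2.27 for Serpinb2, -1.81 for Serpinb7, -1.45 for Serpine2, -1.30 for Serpinh1, -1.14 for Serpini1 and -0.66 for Serping1. Serpina3j, Serpina7 and Serpinb2 were high in KO cTEC, where 5 of the 8 genes on the mTEC list were called higher. Krt14 of that list ran the other way, at a mean of 303 RPKM in KO cTEC and 325 RPKM in WT cTEC. The part of these genes in the serpin values was not tested.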

How the results depend on the processing

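Of 1276 values of named members under the alternatives, 1210 kept their direction and their side of the threshold, 64 kept the direction but were no longer called, 2 became called, and none changed direction. Named members were mostly chosen for large changes without overlap, so a kept direction was likely in advance. Among all 57 tested members, quantile normalization changed the sign of 11 for KO against WT in mTEChi. It changed the sign of 10 for the gates in WT. Where counts below changed, the cause was not tested. For KO against WT in mTEChi, 1 member was called higher, against 0 with a pseudocount of 0.01 or no filter (limma; 1 at an unadjusted p under 0.05 in each), 2 with a pseudocount of 1 or centring on housekeeping genes, and 4 after quantile normalization or with the 2 groups alone. For mTEClo, 11 in place of 7 were lower when centred on housekeeping genes. For cTEC, the groups alone gave 0 lower and 0 higher in place of 5 and 9 (limma; 6 and 9 at an unadjusted p under 0.05). For the difference between the effects in mTEChi and mTEClo, 1 was higher, against 0 with a pseudocount of 0.01 or no filter (limma; 1 unadjusted in each), 3 after quantile normalization and 2 with the groups alone.

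Leaving out 1 library gave 37 to 42 lower and 0 to 1 higher for KO against WT in mTEChi (44 and 1), 3 to 8 lower and 2 to 3 higher in mTEClo (7 and 3), and 2 to 6 lower and 7 to 13 higher in cTEC (5 and 9). It gave 31 to 33 lower and 0 to 1 higher for the difference of effects (33 and 1). For the populations the ranges were 37 to 38 higher and 8 to 9 lower between the gates in WT, 14 to 17 higher and 18 to 19 lower in KO, 41 to 45 higher and 10 lower for WT mTEChi over WT cTEC, and 15 to 20 higher and 6 to 7 lower for WT mTEClo over WT cTEC.

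With the replicate number as a block in all groups, the counts were 44 lower and 1 higher in mTEChi, 7 and 3 in mTEClo and 4 and 9 in cTEC. Pairing WT mTEClo and WT cTEC by number, with the block in these groups alone, gave 20 higher and 6 lower. No count of calls moved by over 1.5 times under the block. Depth limits the members under 0.1 RPKM, of which 6 were not tested.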
